A study of Homo sapiens with 8 samples.

Results

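Cholesterol and fatty acid synthesis genes were followed in small cell lung cancer lines in which the transcription factor KLF9, of the Krüppel-like family, had been targeted with a short hairpin RNA (shRNA). The 32 genes were taken by name from both deposited tables, which list 17169 rows for NCI-H146 and 58434 rows for NCI-H1688, and all 32 were found in each. They comprise 19 genes of the sterol arm, 10 genes of the fatty acid arm and 3 regulators (INSIG1, SREBF1 and SREBF2). The 8 libraries form 4 groups of 2. NCI-H146 cells carrying lentiviral KLF9 shRNA (replicates 1 and 2) were set against NCI-H146 cells carrying control shRNA lentivirus (replicates 2 and 3), and NCI-H1688 cells labelled KLF9 shRNA (replicates 1 and 2) against NCI-H1688 cells carrying control shRNA (replicates 1 and 2). All 4 groups had been infected and kept under puromycin for 2 weeks, and the labels record the control groups as wild type in genotype. The labels mention biological replicates without saying whether they came from separate infections, so p-values measure the spread between these libraries. The cells were stably selected bulk cultures, and the labels do not say how many hairpins were used.

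Cholesterol and fatty acids are both built from acetyl-CoA. The sterol arm runs from acetyl-CoA through mevalonate and isoprenoid diphosphates to squalene, then to lanosterol and, after trimming of its methyl groups and moves of its double bonds, to cholesterol. The fatty acid arm makes palmitate, then elongates and desaturates it. SREBP2, encoded by SREBF2, mainly drives the sterol genes, and SREBP1, encoded by SREBF1, mainly the fatty acid genes. When membrane sterol is high, INSIG proteins hold the SREBPs and their escort SCAP in the endoplasmic reticulum, so these factors are not released to the nucleus. INSIG1 is itself an SREBP target.

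The promoters of the sterol genes share short elements, and those of 5 members are shown, 4 of them called in NCI-H146 and SREBF2 as the only member with a match to the sterol regulatory element. They are RefSeq sequences of build GRCh38.p14 and run from 250 bases before to 50 bases after the gene's start, 5′ to 3′. In the promoters of INSIG1 (chr7:155297628-155297927, plus strand), HMGCS1 (chr5:43313363-43313662, minus strand), MSMO1 (chr4:165327419-165327718, plus strand) and LSS (chr21:46228725-46229024, minus strand) the capitals mark the CCAAT box, the site bound by NF-Y, read as CCAAT on the printed strand or as ATTGG for the other. In the promoter of SREBF2 (chr22:41832855-41833154, plus strand) they mark a match to the sterol regulatory element TCACNCCAC. INSIG1, HMGCS1 and MSMO1 fell in NCI-H146 and LSS rose there. These genes were picked after their values were seen, because the rule chosen for printing (called members with an element match) named 0 genes.
INSIG1: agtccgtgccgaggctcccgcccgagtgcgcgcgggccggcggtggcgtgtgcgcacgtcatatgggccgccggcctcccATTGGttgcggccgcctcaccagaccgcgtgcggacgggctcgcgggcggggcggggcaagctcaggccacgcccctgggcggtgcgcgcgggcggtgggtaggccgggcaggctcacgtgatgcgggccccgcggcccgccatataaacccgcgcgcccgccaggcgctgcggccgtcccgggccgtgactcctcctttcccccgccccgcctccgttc
HMGCS1: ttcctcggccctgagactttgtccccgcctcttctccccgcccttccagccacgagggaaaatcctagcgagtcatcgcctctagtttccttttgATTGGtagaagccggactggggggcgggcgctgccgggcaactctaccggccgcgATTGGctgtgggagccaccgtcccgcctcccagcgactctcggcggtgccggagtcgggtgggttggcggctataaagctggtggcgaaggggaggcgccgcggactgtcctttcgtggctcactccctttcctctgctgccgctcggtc
MSMO1: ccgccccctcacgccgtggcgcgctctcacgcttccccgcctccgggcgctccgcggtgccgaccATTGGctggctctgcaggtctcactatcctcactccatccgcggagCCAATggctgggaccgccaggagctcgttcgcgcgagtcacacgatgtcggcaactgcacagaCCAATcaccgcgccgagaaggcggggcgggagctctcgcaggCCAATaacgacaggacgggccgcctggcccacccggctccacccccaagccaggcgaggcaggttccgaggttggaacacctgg
LSS: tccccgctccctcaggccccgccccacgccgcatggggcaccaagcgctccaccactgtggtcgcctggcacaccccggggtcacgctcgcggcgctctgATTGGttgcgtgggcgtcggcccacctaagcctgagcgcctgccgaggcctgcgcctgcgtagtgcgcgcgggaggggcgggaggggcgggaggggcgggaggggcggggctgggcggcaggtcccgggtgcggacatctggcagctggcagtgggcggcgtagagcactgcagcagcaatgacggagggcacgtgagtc
SREBF2: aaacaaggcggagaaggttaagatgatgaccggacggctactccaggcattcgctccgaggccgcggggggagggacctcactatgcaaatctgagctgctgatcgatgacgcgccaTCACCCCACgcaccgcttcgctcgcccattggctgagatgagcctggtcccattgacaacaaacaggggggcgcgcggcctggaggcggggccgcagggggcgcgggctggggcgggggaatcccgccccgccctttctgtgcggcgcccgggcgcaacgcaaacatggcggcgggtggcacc

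Promoter windows were matched for 28 of the 32 members. A CCAAT box stood on either strand in 13 of 16 sterol arm promoters, 3 of 9 fatty acid arm promoters and 2 of 3 regulator promoters, against 35.7% of all 27305 RefSeq promoter windows. The sterol regulatory element TCACNCCAC was found in 1 of the 28, that of SREBF2, and in 1.15% of all windows. The GC box GGGCGG, which SP and Krüppel-like factors bind, stood in 26 of the 28 and in 44.6% of all windows. The E-box CACGTG stood in 3 of the 28 and in 7.43% of all windows. Among members called lower in NCI-H146 with a window, 5 of 7 had a CCAAT box and 7 of 7 a GC box, and among those called higher 1 of 2 and 2 of 2. These matches are descriptions of letters in a window and not binding sites. Only the letters given were searched, so a variant of an element, or an element outside the window, would be missed. Windows of all genes include many of non-coding genes, so the shares are not a test.

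KLF9 itself fell in NCI-H146, to 24.9 and 32.3 CPM (counts scaled to library size) in the KLF9 shRNA libraries against 67.0 and 61.9 CPM in the controls (log2 fold change -1.17 with a standard error of 0.283, edgeR adjusted p = 0.0131). In NCI-H1688 it went against the labels, at 1.945 and 1.596 TPM (transcript levels scaled for length and library size) in the libraries labelled KLF9 shRNA against 0.298 and 0.644 TPM in the controls, and this did not pass (log2 fold change 0.92, limma adjusted p = 0.0952). Every direction given for NCI-H1688 follows the labels as they stand. NCI-H146 libraries held 15406264 to 16109803 counts, and mitochondrially encoded genes took 8.56% of them in KLF9 shRNA replicate 1 against 0.897% to 1.2% in the other 3. In NCI-H1688 mitochondrially encoded genes took 18.2% and 16.8% of the summed TPM in libraries labelled KLF9 shRNA against 15.4% and 14.7% in the controls. Neuroendocrine markers of small cell lung cancer were low. In NCI-H1688 NEUROD1 and INSM1 were listed at 0 in all 4 libraries, and CHGA, SYP, NCAM1 and DLL3 stood at or below 1.10 TPM. In NCI-H146 the 5 measured neuroendocrine markers summed to 15.4 and 27.3 CPM in the KLF9 shRNA libraries and 6.74 and 8.26 CPM in the controls, and CHGA, SYP and DLL3 rose, the DLL3 call being lost after the GC correction described below (log2 fold change 0.67, edgeR adjusted p = 0.191). CHGA stood at 2.44 and 3.12 CPM with KLF9 shRNA against 0.202 and 0.531 CPM in the controls. NEUROD1 and NCAM1 were not tested, at 0.745 CPM or less. NEUROD1 lay below both controls and NCAM1 above them. INSM1 was not analysed here in this line.

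In NCI-H146 the sterol arm split. With KLF9 shRNA, 7 of its 19 genes fell (HMGCS1, IDI1, FDFT1, CYP51A1, MSMO1, SC5D and STARD4) and 2 rose (PMVK and LSS), while 10 did not pass the test. The feedback regulator INSIG1 fell most, 4.65-fold. Of the 9 tested fatty acid genes, 0 were called in either direction by edgeR, DESeq2 or limma-voom (edgeR, 4 at an unadjusted p under 0.05, of which 2 were higher and 2 lower). A gene is called when its adjusted p (Benjamini-Hochberg over all tested genes) is under 0.05, and 17.1% of the 13129 tested genes were called, 8.01% higher and 9.12% lower. Over all members 10 of 31 tested were called, which is 32.3%, and in the sterol arm 47.4%. These are RNA levels of bulk cultures, in which fewer cells of a kind and less RNA per cell cannot be told apart. Groups did not overlap for 24 of the 31 tested members, 9 with both KLF9 shRNA libraries above and 15 below, and for 62.5% of all tested genes.

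**Figure D1:**
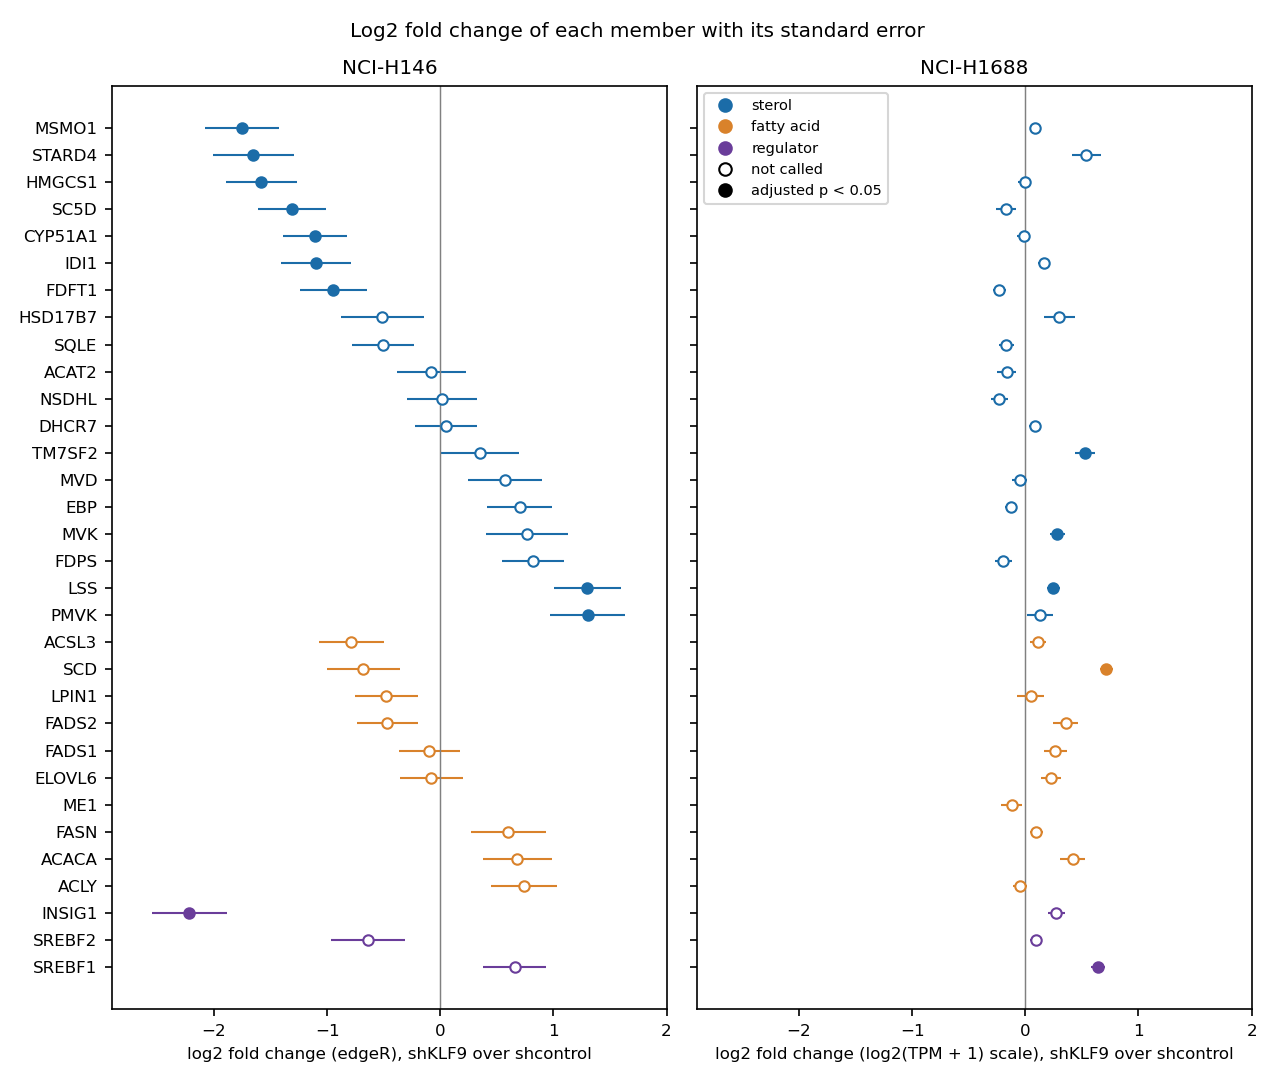
Log2 fold change (KLF9 shRNA over control shRNA) of each member with its standard error, NCI-H146 left and NCI-H1688 right, ordered within each arm by the NCI-H146 value; filled points have an adjusted p under 0.05. Sterol arm values run from -1.75 to 1.30 in NCI-H146 and from -0.23 to 0.54 in NCI-H1688. ME1 has no point in NCI-H146 because it was not tested there.

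INSIG1 (chromosome 7, 155297776 to 155310235, GRCh38), which retains the SREBP escort complex, stood at 16.6 and 18.9 CPM in the KLF9 shRNA libraries against 109 and 56.4 CPM in the controls (log2 fold change -2.22 with a standard error of 0.331, edgeR adjusted p = 0.00128). Both KLF9 shRNA libraries lay well below both controls, and the controls differed from each other by more than the KLF9 shRNA libraries did. SREBF2 (chromosome 22, 41833079 to 41907308), the sterol-arm activator, was at 159.5 and 295 CPM against 384 and 324.5 CPM in the controls, and SREBF1 (chromosome 17, 17810399 to 17837002), the fatty-acid activator, at 51.2 and 66.6 CPM against 35.4 and 39.2 CPM. Their groups did not overlap, SREBF2 being lower and SREBF1 higher with KLF9 shRNA, but neither passed (edgeR adjusted p = 0.178 and 0.110).

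At the entry to the sterol arm, HMGCS1 (chromosome 5, 43289395 to 43313512), which makes HMG-CoA, was at 29.4 and 45.7 CPM in the KLF9 shRNA libraries against 135 and 89.4 CPM in the controls (log2 fold change -1.58 with a standard error of 0.314, edgeR adjusted p = 0.00545). The next kinase steps had values on the other side. PMVK (chromosome 1, 154924734 to 154936991), phosphomevalonate kinase, was at 22.1 and 38.6 CPM against 13.1 and 11.5 CPM in the controls (log2 fold change 1.30 with a standard error of 0.331, edgeR adjusted p = 0.0163). Mevalonate kinase MVK was at 7.79 and 9.17 CPM against 5.86 and 4.13 CPM, from 70 to 147 counts, and did not pass (log2 fold change 0.77, edgeR adjusted p = 0.149). The decarboxylase MVD was at 22.1 and 38.01 CPM against 23.4 and 17.1 CPM, with overlapping groups (adjusted p = 0.232). ACAT2, the cytosolic thiolase ahead of HMGCS1, was at 22.1 and 22.6 CPM between its controls at 27.8 and 19.5 CPM.

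Among the isoprenoid steps, IDI1 (chromosome 10, 1039152 to 1049170), isopentenyl-diphosphate isomerase, fell to 24.9 and 19.8 CPM with KLF9 shRNA, against 57.5 and 38.1 CPM in the controls (log2 fold change -1.10 with a standard error of 0.307, edgeR adjusted p = 0.0244). FDPS, farnesyl diphosphate synthase, was at 107 and 140.3 CPM against 72.7 and 67.6 CPM and just missed the threshold (log2 fold change 0.82, edgeR adjusted p = 0.0515). FDPS has 8 annotated pseudogenes of its name, with which reads could be shared. FDFT1, squalene synthase on chromosome 8, fell to 43.0 and 27.3 CPM, against 74.8 and 60.7 CPM in the controls (log2 fold change -0.95, edgeR adjusted p = 0.0394). SQLE, squalene epoxidase, was at 65.1 and 51.8 CPM against 86.9 and 79.4 CPM and did not pass (adjusted p = 0.205). LSS (chromosome 21, 46188141 to 46228824), which closes the sterol ring, rose to 95.9 and 149 CPM, against 44.3 and 55.2 CPM (log2 fold change 1.30 with a standard error of 0.299, edgeR adjusted p = 0.0107). Consecutive enzymes of 1 route thus had fold changes of opposite sign.

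After lanosterol the falls again predominated among called genes. MSMO1 (chromosome 4, 165327623 to 165343160), a sterol methyl oxidase, was at 10.9 CPM in both KLF9 shRNA libraries against 46.3 and 27.2 CPM in the controls (log2 fold change -1.75 with a standard error of 0.329, edgeR adjusted p = 0.00432). CYP51A1 (chromosome 7, 92112151 to 92134803), lanosterol demethylase, fell to 33.0 and 42.4 CPM, against 88.3 and 73.8 CPM (log2 fold change -1.10, edgeR adjusted p = 0.0167). SC5D (chromosome 11, 121292453 to 121308694), a sterol desaturase, fell to 14.8 and 12.8 CPM, against 36.7 and 31.9 CPM (log2 fold change -1.31, edgeR adjusted p = 0.0105). These 3 had no overlap between groups. EBP, a sterol isomerase, was at 86.2 and 117.7 CPM against 70.5 and 54.9 CPM and did not pass (adjusted p = 0.0973). TM7SF2, a sterol reductase, NSDHL, DHCR7 and HSD17B7, which act in the same late segment, had overlapping groups and log2 fold changes between -0.51 and 0.35. STARD4 (chromosome 5, 111496033 to 111512590), a soluble sterol carrier, fell to 6.43 and 12.4 CPM, against 35.0 and 24.4 CPM in the controls (log2 fold change -1.65 with a standard error of 0.357, edgeR adjusted p = 0.00805).

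**Figure D2:**
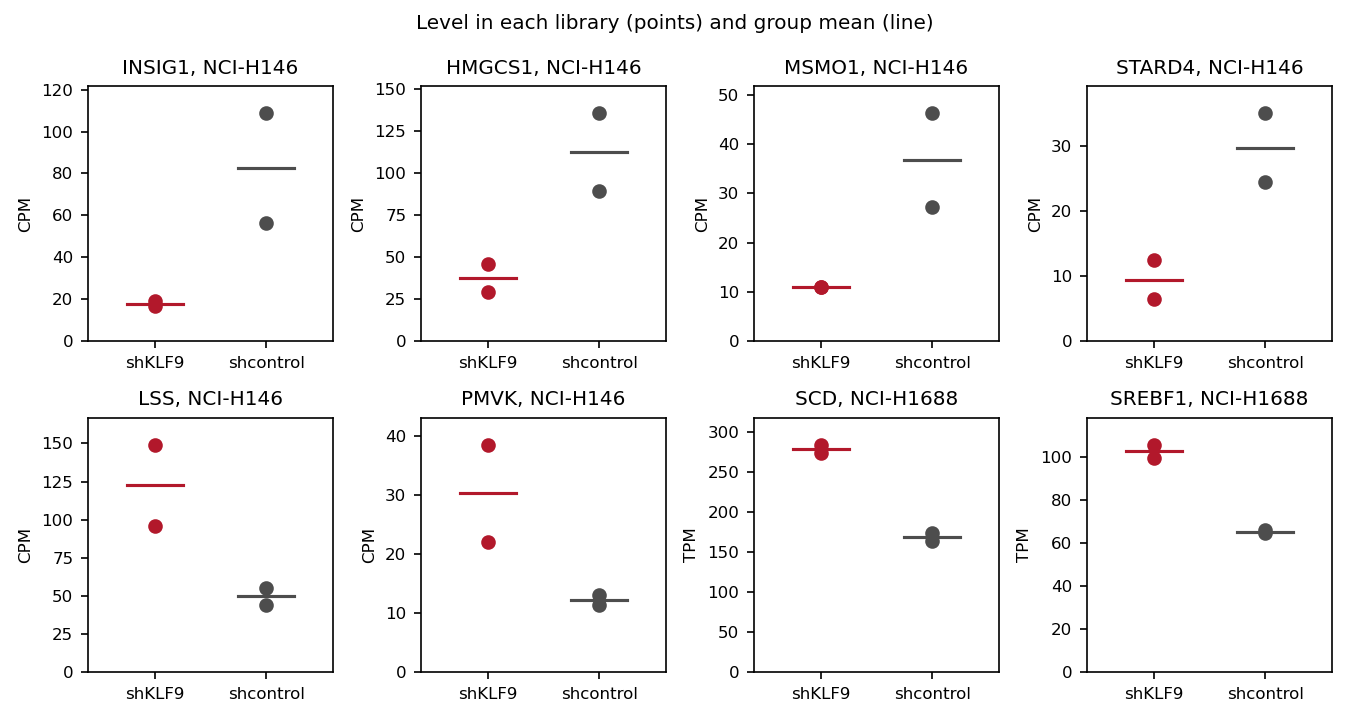
Level of 8 members in each library (points) with the group mean (line); CPM for NCI-H146 and TPM for NCI-H1688, each axis from 0, with KLF9 shRNA left of control shRNA. INSIG1, HMGCS1, MSMO1 and STARD4 lie below both controls in NCI-H146, LSS and PMVK above them, and SCD and SREBF1 lie above both controls in NCI-H1688.

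In the fatty acid arm of NCI-H146, where 0 genes passed, 3 groups lay above, 5 below and 1 overlapped, beside 62.5% of all tested genes without overlap (30.6% above and 31.9% below). In simulated data, with 100 of 12996 genes changed at each size, edgeR recovered 20% of log2 changes of 1. Far more genes were called in the data (2250 of 13129), which makes the adjusted threshold less strict there. The 20% is therefore not the sensitivity for these genes, but genes that did not pass may still have changed. The early enzymes had higher values that did not pass. ACLY, which makes cytosolic acetyl-CoA, was at 229 and 324 CPM with KLF9 shRNA against 154 and 176.5 CPM in the controls (log2 fold change 0.74, edgeR adjusted p = 0.0891). ACACA, acetyl-CoA carboxylase, was at 52.7 and 76.9 CPM against 31.2 and 49.6 CPM (log2 fold change 0.68, adjusted p = 0.129), and fatty acid synthase FASN at 541 and 796 CPM against 399 and 483.5 CPM (log2 fold change 0.60, adjusted p = 0.210). The later enzymes had lower or near-equal values. SCD (chromosome 10, 100347124 to 100364834), the stearoyl-CoA desaturase, was at 387 and 497 CPM against 718 and 700.1 CPM (log2 fold change -0.68, adjusted p = 0.146). ACSL3, an acyl-CoA synthetase, was at 82.7 and 56.3 CPM against 126.5 and 113 CPM (log2 fold change -0.79, adjusted p = 0.0671). The phosphatidate phosphatase LPIN1 and the desaturases FADS1 and FADS2 had log2 fold changes of -0.48, -0.10 and -0.47, and the elongase ELOVL6 -0.08. Malic enzyme ME1, an NADPH source, had 3 counts in 1 control library and 0 in the other 3 libraries, and was not tested.

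As a summary of the arms in NCI-H146, the median log2 fold change was -0.08 in the sterol arm and -0.10 in the fatty acid arm, against 0.01 over all tested genes. With INSIG1 and SREBF2 counted in the sterol arm and SREBF1 in the fatty acid arm, the medians were -0.51 and -0.09. The interquartile range was 1.74 in the sterol arm, 1.08 in the fatty acid arm and 1.00 over all genes. Summed over its genes, the sterol arm stood at 721 and 884 CPM with KLF9 shRNA against 982 and 765.5 CPM in the controls and the fatty acid arm at 1551 and 2039 CPM against 1778 and 1853 CPM. In both cases the groups overlapped. No test compares the arms, because genes are not replicates of a condition.

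**Figure D3:**
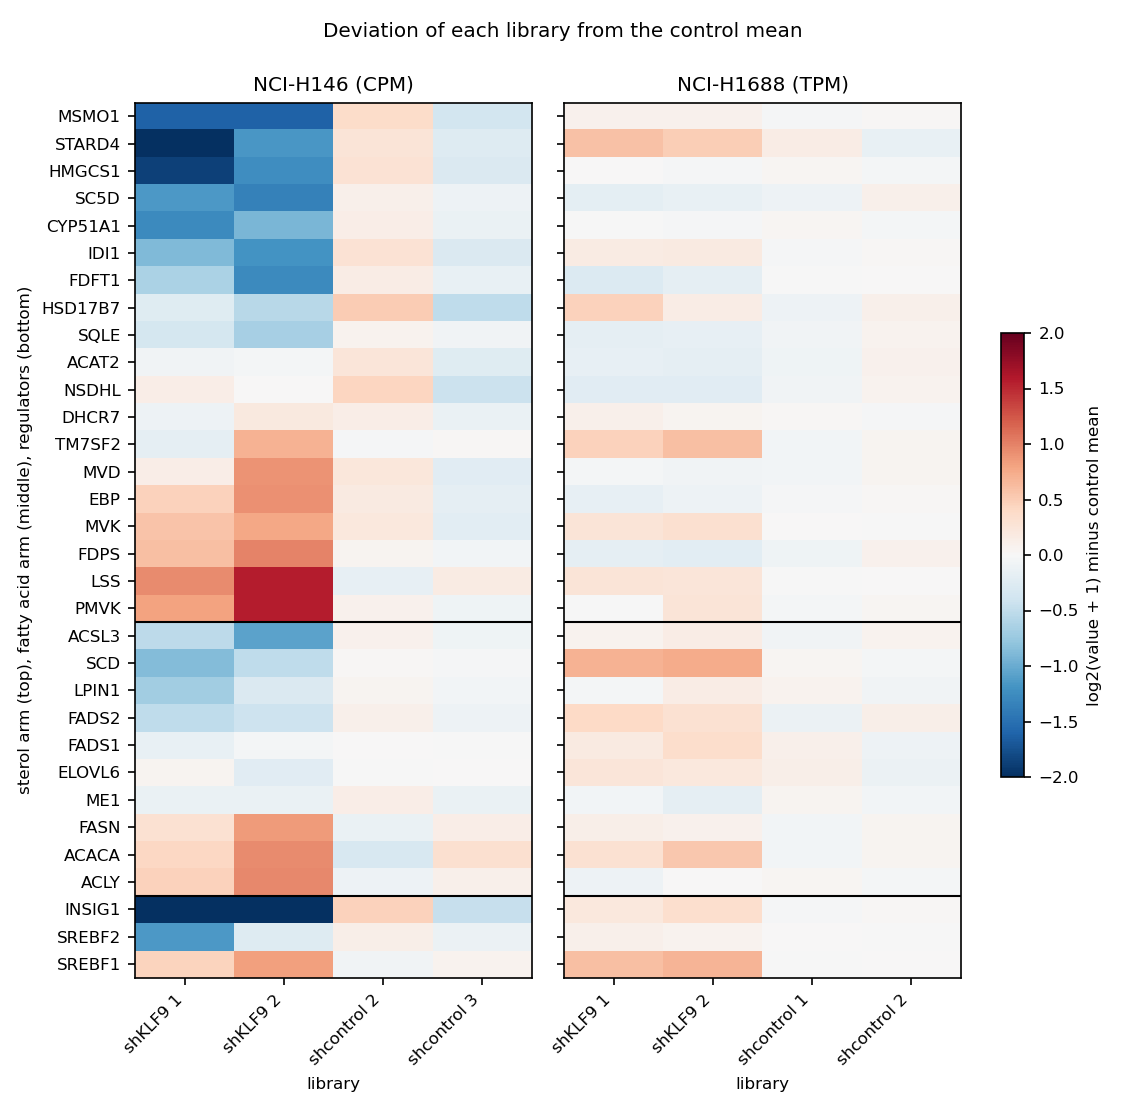
Deviation of each library from the mean of its line's control libraries, as log2(CPM + 1) for NCI-H146 and log2(TPM + 1) for NCI-H1688, with members in rows and libraries in columns, KLF9 shRNA left. The sterol arm of NCI-H146 runs from strongly negative rows (MSMO1, STARD4, HMGCS1) to strongly positive ones (LSS, PMVK), and the control libraries also differ from each other there.

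The sign of the NCI-H146 fold change followed the base composition of the transcript. GC content was taken from the longest GENCODE 29 transcript of each gene, which gave a value for 94.7% of the tested genes. All 9 tested members with a GC content under 45% had negative log2 fold changes, with a median of -1.10, and 6 were called lower. Among the 11 members of at least 55%, 9 had positive values, 2 were called higher and 0 lower. Across the 19 sterol genes the correlation of GC content with log2 fold change was 0.89 (Pearson) and 0.89 (Spearman), and across the 31 tested members 0.75 and 0.78. These are correlations across genes measured in the same 4 libraries, and genes are not independent replicates. The falling genes STARD4, MSMO1, SC5D, HMGCS1, IDI1 and CYP51A1 lie at 34.2%, 38.1%, 38.6%, 40.2%, 41.1% and 41.5% GC, and the rising genes LSS and PMVK at 58.3% and 59.5%. The other falling genes, INSIG1 and FDFT1, lie at 46.0% and 48.6%.

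All genes of NCI-H146 showed the same tilt to a smaller degree. Over 12429 tested genes the Spearman correlation was 0.48, and the median log2 fold change was -0.38 under 45% GC, 0.10 from 45% to 55% and 0.42 from 55% upward. The share of genes called lower was 17.3%, 5.41% and 3.17% in these 3 classes, and the share called higher 1.10%, 6.88% and 17.8%. In the lowest class 6 of 9 members were called lower against that 17.3%. In the highest class 2 of 11 members were called higher against that 17.8%, which is near the share of all genes. The tilt was present in single libraries. The Spearman correlation of a gene's deviation from its mean with GC content was 0.16 and 0.53 in KLF9 shRNA replicates 1 and 2, and -0.35 and -0.52 in control replicates 2 and 3. In NCI-H1688 the corresponding values lay between -0.07 and 0.03, and the correlation of fold change with GC content was 0.03 over all genes and 0.03 in the sterol arm. The part of this tilt in the member results was examined only by the correction that follows.

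**Figure D4:**
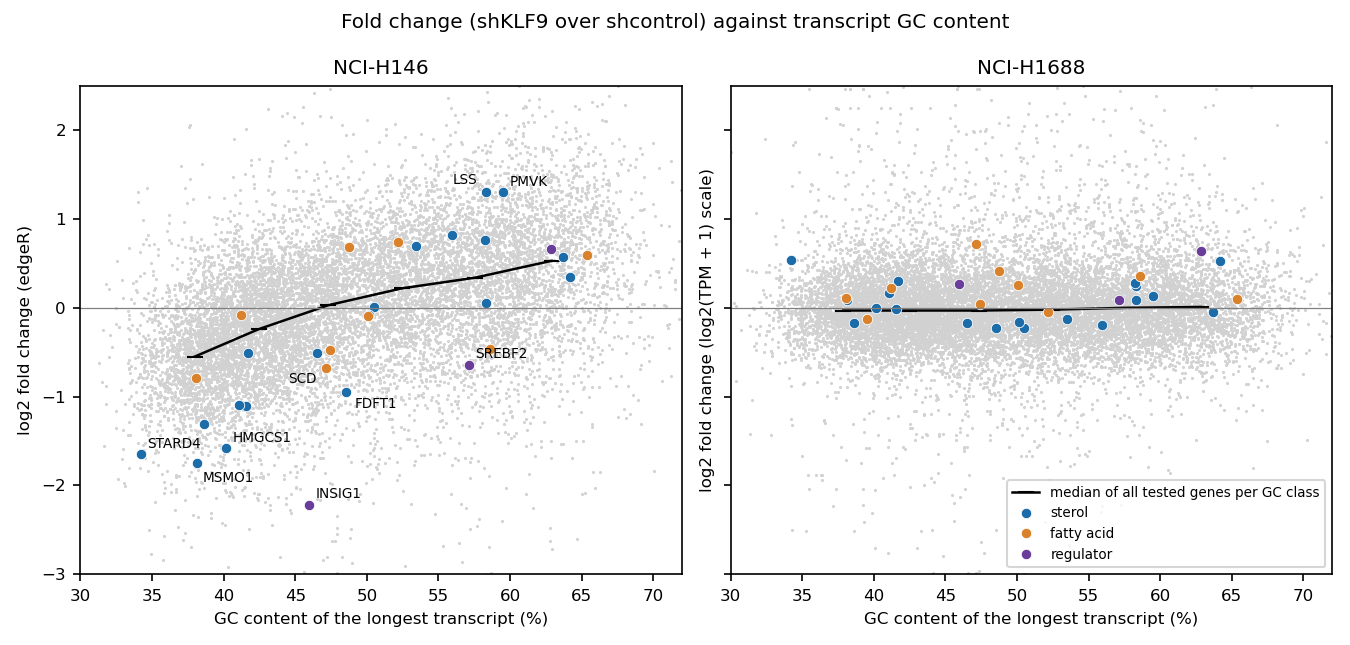
Log2 fold change (KLF9 shRNA over control shRNA) against GC content of the longest transcript, NCI-H146 left and NCI-H1688 right; grey points are all tested genes within the plotted range, the black line joins medians of 6 GC classes, and coloured points are members by arm. In NCI-H146 the line runs from -0.55 to 0.53, and the sterol members tilt the same way more steeply. Sterol members called lower, from -1.75 to -0.95, lie below the line, and LSS and PMVK, at 1.30, above it. INSIG1 and SREBF2 also lie below it. In NCI-H1688 the line is flat.

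The fit was repeated with each library's dependence on GC content removed, a setting added after the tilt had been seen. Of the 10 called members 5 stayed called: INSIG1 (log2 fold change -2.13, edgeR adjusted p = 0.00178), MSMO1 (-1.25, adjusted p = 0.0225), HMGCS1 (-1.17, adjusted p = 0.0294), FDFT1 (-0.99, adjusted p = 0.0332) and LSS (0.92, adjusted p = 0.0380). STARD4, SC5D, CYP51A1, IDI1 and PMVK kept their direction at log2 fold changes of -0.92, -0.83, -0.77, -0.76 and 0.89, but no longer passed (adjusted p between 0.0542 and 0.102). SREBF2 and FADS2, at 57.1% and 58.6% GC, were called lower (log2 fold change -0.99 and -0.82, adjusted p = 0.0484 and 0.0481). SREBF1 and FASN, above 60% GC, moved to 0.19 and 0.07. INSIG1, at 46.0% GC, hardly moved. In all, 1421 genes were called in this fit against 2250 without the correction.

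**Figure D5:**
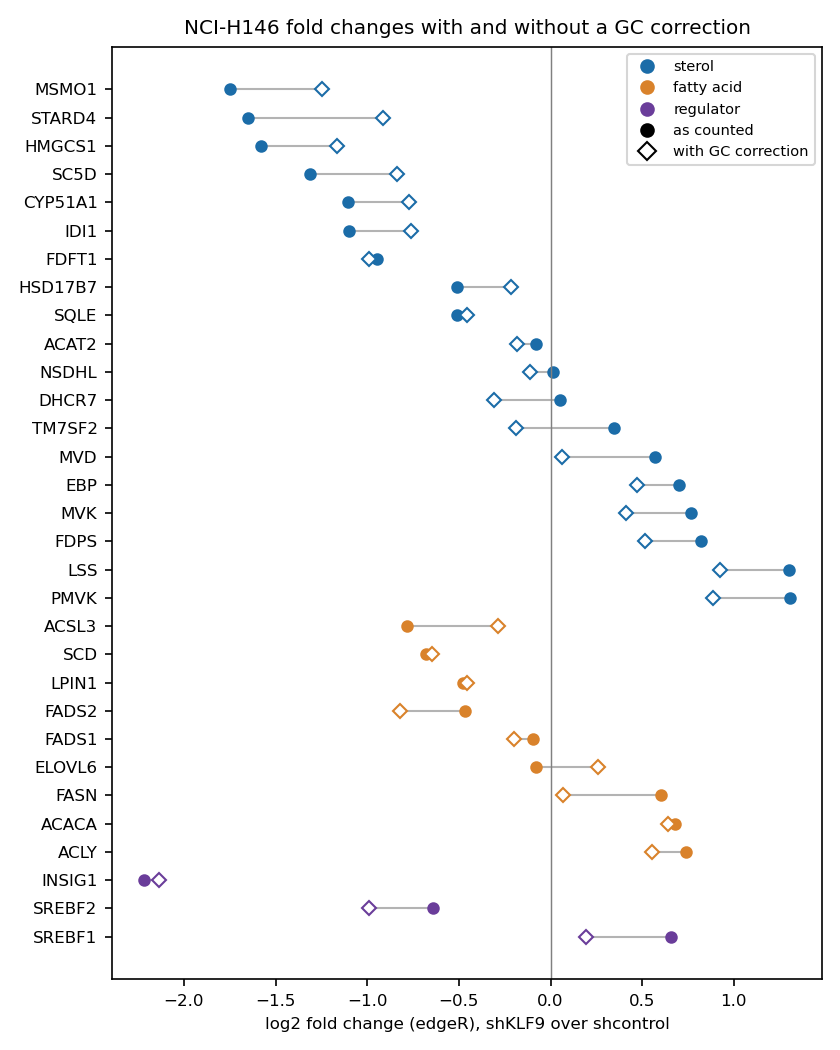
NCI-H146 log2 fold change (KLF9 shRNA over control shRNA) of each tested member as counted (filled circles) and after the GC correction (open diamonds), by arm. INSIG1, FDFT1 and SCD move by less than 0.1, whereas STARD4 moves from -1.65 to -0.92.

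Single libraries also bore on these calls. Without control replicate 2, in which INSIG1, HMGCS1, MSMO1 and STARD4 were highest, 0 members were called by edgeR (8 at an unadjusted p under 0.05) among 51 genes called in all, and INSIG1 had a log2 fold change of -1.63 (adjusted p = 0.105). Without control replicate 3, 4 members stayed called (INSIG1, HMGCS1, MSMO1 and STARD4). Without KLF9 shRNA replicate 1, the library with the high mitochondrial share, all 10 stayed called and 21 members were called in total. Without KLF9 shRNA replicate 2, 9 of the 10 stayed called, FDFT1 being lost, and SCD and SREBF2 were called lower. Leaving out the mitochondrially encoded genes left the same 10 called.

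In NCI-H1688 sterol arm values lay on both sides of 0, and among the members the largest changes were those of SCD and SREBF1, on the fatty acid side. In the libraries labelled KLF9 shRNA 5 of 32 members rose, namely SCD, SREBF1, TM7SF2, MVK and LSS, and 0 fell (limma, 2 lower at an unadjusted p under 0.05, both of the sterol arm). That is 15.6% of members, beside 16% of the 14754 tested genes called (6.36% higher and 9.67% lower), so the share is near the background. SCD stood at 274.5 and 284.5 TPM in libraries labelled KLF9 shRNA against 175 and 165 TPM in the controls (1.65-fold, log2 fold change 0.72 with a standard error of 0.0561, limma adjusted p = 0.00777). SREBF1 stood at 99.5 and 105.5 TPM against 64.6 and 65.9 TPM (1.57-fold, log2 fold change 0.64 with a standard error of 0.0588, limma adjusted p = 0.00980). In both genes the gap between groups was several times the spread within them. Fold changes of this line are on the log2(TPM + 1) scale.

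The other fatty acid genes of NCI-H1688 were mostly higher without passing. Groups did not overlap for 7 of 10, all of them above the controls. Over all tested genes 62.7% did not overlap, 28.9% lying above and 33.8% below. ACACA was at 25.4 and 30.2 TPM in libraries labelled KLF9 shRNA against 19.6 and 21.3 TPM in the controls (log2 fold change 0.42, limma adjusted p = 0.0709), and FADS2 at 29.4 and 27.6 TPM against 20.2 and 24.1 TPM (log2 fold change 0.36, adjusted p = 0.0962). FADS1, ELOVL6, ACSL3 and FASN had log2 fold changes of 0.26, 0.23, 0.11 and 0.10, FASN standing at 170 and 167 TPM against 151 and 163 TPM. ACLY, ME1 and LPIN1 overlapped between groups (log2 fold change -0.05, -0.12 and 0.05). Summed TPM of the fatty acid arm were 869 and 897 against 723 and 718.5, with SCD making up most of the gap.

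In the sterol arm of NCI-H1688, 8 genes lay above and 7 below both controls, and 4 overlapped. TM7SF2 was at 29.2 and 32.3 TPM in libraries labelled KLF9 shRNA against 20.2 and 21.8 TPM in the controls (log2 fold change 0.53, limma adjusted p = 0.0265). MVK was at 42.98 and 44.97 TPM against 36.1 and 35.8 TPM (log2 fold change 0.28, adjusted p = 0.0476) and LSS at 65.8 and 64.7 TPM against 54.3 and 55.4 TPM (log2 fold change 0.25, adjusted p = 0.0493). These 2 lay just inside the threshold, and just outside it were STARD4 at 27.3 and 25.3 TPM against 20.0 and 15.9 TPM (log2 fold change 0.54, adjusted p = 0.0573) and FDFT1 at 121 and 129 TPM against 145.8 and 147.9 TPM (log2 fold change -0.23, adjusted p = 0.0649). HMGCS1 differed little, at 201 and 196.5 TPM against 206 and 193 TPM (log2 fold change -0.01 with a standard error of 0.0561, adjusted p = 0.955). INSIG1 was at 30.1 and 32.8 TPM against 25.3 and 26.3 TPM (log2 fold change 0.27, adjusted p = 0.0810) and SREBF2 at 68.3 and 66.8 TPM against 63.8 and 62.9 TPM (log2 fold change 0.09, adjusted p = 0.309). The arm's summed TPM were 1641 and 1632 against 1620 and 1677. Its median log2 fold change was -0.01, that of the fatty acid arm 0.17 and that of all tested genes -0.02. The sterol and fatty acid medians were 0.13 and 0.28 after quantile normalization, 0.07 and 0.24 without mitochondrially encoded genes, and 0.08 and 0.23 with the regulators counted in the arms.

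Leaving out a library in NCI-H1688 leaves 1 residual degree of freedom among samples. Without any 1 of the 4 libraries limma called 0 genes of any kind, with 3277 to 4297 genes at an unadjusted p under 0.05, so lost calls there say nothing of single members. The log2 fold changes of those fits ranged from 0.68 to 0.76 for SCD, 0.60 to 0.68 for SREBF1, 0.46 to 0.60 for TM7SF2, 0.25 to 0.32 for MVK and 0.23 to 0.26 for LSS. SCD and SREBF1 were called in all 9 alternatives that used 4 libraries. LSS was lost in 4 of these, MVK in 3 and TM7SF2 in 2. The split of called genes between higher and lower was 939 and 1427 as deposited, 1114 and 1055 with mitochondrially encoded genes left out, and 488 and 346 without an intensity trend.

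Levels within a line can be ranked per transcript length. In the NCI-H1688 controls FDPS was highest among members at 265 TPM, followed by HMGCS1 at 199 TPM, SCD at 170 TPM and FASN at 157 TPM, and LPIN1 was lowest at 8.33 TPM. FDPS and HMGCS1 differed by more than their SDs (22.7 and 8.99 TPM, n = 2 each), while SCD at 164.8 TPM or more and FASN at 163.1 TPM or less stood side by side. In the NCI-H146 controls, per kilobase of merged exons, SCD led at 132 CPM per kilobase, FASN and SREBF2 were nearly tied at 47.1 and 46.9, and ME1 was last.

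Values of related genes of lipid metabolism were read from the same fits. Of 52 tested in NCI-H146, 2 rose and 7 fell (17.3% called, against 17.1% of all tested genes). The coactivator PPARGC1A and PDK4, a kinase that restrains pyruvate oxidation, fell most, PPARGC1A to 15.7 and 12.8 CPM against 55.5 and 65.3 CPM in the controls (log2 fold change -2.08, edgeR adjusted p = 0.00108) and PDK4 to 6.70 and 5.05 CPM against 25.1 and 27.0 CPM (log2 fold change -2.15, adjusted p = 0.00142). The elongase ELOVL5, the desaturase SCD5, the sterol scaffold ERG28, the receptor-degrading ligase MYLIP and NUS1, a dolichol synthesis subunit, also fell (log2 fold change -1.31, -1.11, -1.08, -1.21 and -0.95). AGPAT2, an acyltransferase, and ACADVL, of fatty acid oxidation, rose (log2 fold change 1.17 and 0.87). After the GC correction 6 of these 9 stayed called, and NUS1, AGPAT2 and ACADVL did not. By list, fatty acid oxidation had 1 rise and 2 falls among 10, other fatty acid and lipid synthesis 1 and 2 among 19, other isoprenoid and sterol genes 0 and 2 among 7, and efflux genes 0 and 1 among 3. In SREBP processing and in uptake and storage edgeR called 0 of 7 and 0 of 6 genes (0 and 0 at an unadjusted p under 0.05).

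In NCI-H1688, 4 of 54 related genes rose and 2 fell (11.1% called, against 16%). INSIG2, the paralog of INSIG1, was at 33.6 and 32.2 TPM in libraries labelled KLF9 shRNA against 16.4 and 18.9 TPM in the controls (log2 fold change 0.86, limma adjusted p = 0.0125). The sterol exporter ABCG1, the lysosomal cholesterol transporter NPC1 and ACSS2, an acetyl-CoA synthetase, rose (log2 fold change 0.51, 0.39 and 0.42), while the elongase ELOVL1 and the acyltransferase DGAT1 fell (-0.46 and -0.43). By limma, fatty acid oxidation had 0 calls among 10 and other isoprenoid and sterol genes 0 among 7 (2 and 0 at an unadjusted p under 0.05).

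Side by side, 11 of the 31 members tested in both lines had non-overlapping groups of opposite direction (35.5%), beside 26.3% of the 10773 genes tested in both. Another 8 had non-overlapping groups of the same direction (25.8%, beside 15.9%), namely LSS, SREBF1, MVK, ACACA and FASN above their controls and SQLE, FDFT1 and SC5D below. STARD4, IDI1, MSMO1, SCD, FADS1, FADS2, ACSL3, INSIG1 and SREBF2 were below their controls in NCI-H146 and above them in NCI-H1688, and FDPS and EBP were the reverse. The tables were normalized separately and in different units, so these differences between lines were not tested. LSS was called higher in both lines (log2 fold change 1.30 in NCI-H146 and 0.25 in NCI-H1688), and SREBF1 had values of 0.66 and 0.64. In NCI-H1688 LSS lay just inside the threshold (limma adjusted p = 0.0493) and was called in 5 of the 9 alternatives that used all libraries. SREBF1 did not pass in NCI-H146 (edgeR adjusted p = 0.110) and moved to 0.19 there after the GC correction.

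Several marker sums of other cell types also differed between groups, and their part in the member results was not tested. In NCI-H146 the fibroblast markers, chiefly COL1A1, summed to 28.2 and 31.9 CPM with KLF9 shRNA against 108 and 52.4 CPM in the controls, with COL1A2 at most 0.202 CPM. Leukocyte markers there summed to 13.3 and 11.6 CPM against 19.5 and 18.9 CPM. PTPRC made up most of this sum, at 10.4 CPM in both KLF9 shRNA libraries against 13.3 and 12.1 CPM, and was not called. CD68 was called lower (log2 fold change -1.63, edgeR adjusted p = 0.0212). Squamous markers, chiefly TP63, summed to 1.35 and 1.06 CPM against 2.70 and 3.13 CPM. Epithelial markers summed to 265 and 307 CPM against 292 and 197 CPM, with overlapping groups. In NCI-H1688 the epithelial markers summed to 1451 and 1480 TPM in libraries labelled KLF9 shRNA against 2431 and 2518 TPM in the controls, KRT8 and KRT18 falling and CDH1 rising. Squamous markers there summed to 674 and 688 TPM against 819 and 839 TPM, KRT5 and KRT6A falling and TP63 rising, fibroblast markers to 19.8 and 17.6 TPM against 12.2 and 13.9 TPM, and leukocyte markers to 19 and 19.1 TPM against 11.4 and 12.3 TPM, with PTPRC and CD3E at or below 0.118 TPM. The called leukocyte marker was CD14, at 7.09 and 6.47 TPM against 0.664 and 0.601 TPM. The hepatocyte genes ALB and APOA1 stayed at or below 0.312 CPM in NCI-H146 and 0.175 TPM in NCI-H1688.

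Some members cannot be separated from neighbours, since neither table records strand. Exons of ACAT2 overlap those of TCP1 and SOD2 on the other strand, those of MVK overlap MMAB, those of SREBF1 overlap RAI1, and FADS1 and FADS2 overlap each other. CYP51A1 shares exon sequence with an annotated readthrough gene.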

How the data were processed

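Poly(A) RNA libraries of the 8 samples were prepared with random priming, per the labels' protocols. STAR 2.5.1, DESeq2 and build GRCh38 (hg38) appear, without their roles, in the processing notes of the submitters. Which counter and annotation were used is not given in the sources used here. For NCI-H146 the authors deposited whole-number counts per gene. For NCI-H1688 the authors deposited TPM, which keep no depth. Of TPM rows sharing a name (1453 extra rows), the one with the highest mean was kept. The columns then sum to 842439 to 885111, and what set these totals is not recorded.

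Counts were tested with edgeR 4.0.16 in R 4.3.3 (TMM, filterByExpr, quasi-likelihood F test), 13129 genes; the standard error is the log2 fold change divided by the square root of F. TPM were tested with limma 3.58.1 (intensity trend) on log2(TPM + 1) for 14754 genes of mean at least 1 TPM. CPM use TMM totals. DESeq2 1.42.0 and limma-voom were alternatives. The GC correction subtracts a per-library loess curve (span 0.5). Each test was checked on simulated data without a GC tilt, with 100 genes changed at each size. Far more genes were called in the data, so the simulated shares do not give the sensitivity there. In the simulation edgeR recovered 20% of log2 changes of 1 and 95% of log2 changes of 2. For limma the shares were 50% and 83%. The GC correction was thus not checked under such a tilt. Coordinates are GENCODE 29. Members, arms and lists were chosen with earlier results of these data known. All 32 members are accounted for, and of the related lists up to 3 called genes per list and line, by smallest adjusted p, were named; per-library values of further uncalled members were added after their values were seen.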

Additional observations from a re-analysis of the deposited data

Results flagged for a closer look

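In 11 members both libraries with KLF9 shRNA lay on one side of their controls in NCI-H146 and both libraries labelled KLF9 shRNA on the other side in NCI-H1688 (35.5% of the members tested in both lines, beside 26.3% of all genes tested in both). The difference between the lines was not tested. Log2 fold changes in NCI-H146 and then NCI-H1688 were -2.22 and 0.27 for INSIG1, -1.75 and 0.09 for MSMO1, -1.65 and 0.54 for STARD4, and -1.10 and 0.16 for IDI1. They were -0.64 and 0.09 for SREBF2, -0.68 and 0.72 for SCD, -0.78 and 0.11 for ACSL3, -0.47 and 0.36 for FADS2, and -0.10 and 0.26 for FADS1. FDPS, at 0.82 and -0.20, and EBP, at 0.70 and -0.13, had the opposite order. Of these values INSIG1, MSMO1, STARD4 and IDI1 passed the test in NCI-H146 and SCD in NCI-H1688, where KLF9 itself went against the labels.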

How the results depend on the processing

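In NCI-H1688, 943 genes, 2 members and 0 sterol genes (higher) were called without a filter on low values, 834, 2 and 0 by limma without a trend, and 1218, 3 and 1 with the replicate block. Replicate numbers did not pair these libraries (correlation of deviations -0.01). Quantile normalization called 9 members, with 5 sterol and 3 fatty acid genes higher, beside 2293 of 14754 genes called. Fatty acid genes called higher were 2 with a mean of at least 5 TPM (2734 of 10542 genes called). They were also 2 with mitochondrially encoded genes left out (2169 of 15666 genes called), and with regulators joined to the arms. Without any 1 library all counts were 0, a fit with 1 residual degree of freedom in which no gene of the table passed, so these 0s say nothing of stability. No paired analysis was possible in NCI-H146 because only 1 replicate number is shared. There the GC correction, chosen after seeing the data, called 1421 genes, 1 sterol gene higher, 3 lower and 1 fatty acid gene lower. Without 1 library, called genes ranged from 51 to 5026, members from 0 to 21, sterol genes higher from 0 to 7 and lower from 0 to 8, and fatty acid genes higher from 0 to 3 and lower from 0 to 1. The cause of these shifts was not tested, and the fits without 1 library left 1 residual degree of freedom.

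Members changed sign only where they were called under neither setting. In NCI-H1688 quantile normalization gave HMGCS1 0.13, CYP51A1 0.09, MVD 0.06, ACLY 0.07 and LPIN1 0.00 (log2), and leaving out mitochondrially encoded genes gave HMGCS1 0.07, CYP51A1 0.06, MVD 0.02 and ACLY 0.02. The GC correction gave HMGCS1 0.02 and CYP51A1 0.02 there, and in NCI-H146 DHCR7 -0.31, NSDHL -0.11, TM7SF2 -0.19 and ELOVL6 0.26. Leaving out 1 library at a time in NCI-H1688 gave ranges of -0.05 to 0.04 for HMGCS1, -0.05 to 0.02 for CYP51A1, -0.10 to 0.00 for MVD, -0.05 to 0.14 for LPIN1, -0.10 to 0.00 for ACLY and 0.00 to 0.26 for PMVK. Leaving out 1 library at a time in NCI-H146 gave ranges of -0.96 to 0.18 for HSD17B7, -0.31 to 0.24 for ACAT2, -0.10 to 0.24 for DHCR7, -0.37 to 0.56 for NSDHL, -0.20 to 0.75 for TM7SF2 and -0.21 to 0.05 for ELOVL6. The NCI-H146 sterol median moved to -0.51 with regulators joined to the arms, to 0.24 without control replicate 2 and to -0.37 without control replicate 3.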
